A study of Mus musculus with 6 samples.

Results

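The epidermal beta-defensins were taken as 5 mouse genes, Defb1, Defb3, Defb4, Defb6 and Defb14. Each was measured by 1 probe set, the row of the deposited array values whose single gene symbol was the member's, so 5 of the 35556 probe sets and 5 of the 19938 named genes were used. Transcripts were measured in full-thickness skin of inbred male BALB/c mice aged 5 to 6 weeks. Day 1 wounds and day 4 wounds were biopsied with the skin around them (an 8 mm punch over a 4 mm punch wound on a shaved back, 2 wounds per mouse), and intact skin was the control. Each of the 3 groups had 2 arrays, whose number limits the precision. Replicates are labelled as biological, with no word on how many animals went into an array, so p-values measure only the spread between these samples. By the nominal punch sizes the wound made up 25% of the biopsy area and the rest was neighbouring skin. The wound area at the time of biopsy was not available here.

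Beta-defensins are short cationic secreted peptides, held in shape by disulfide bonds, that damage microbial membranes and attract leukocytes. In skin they are made chiefly by keratinocytes. Some are present in resting epithelium, such as Defb1, and others are switched on by microbial products, by cytokines of the IL-1 and IL-17 families, by TNF and by growth factors released in wounds. Defb14 is the mouse counterpart of an inducible human defensin that binds the chemokine receptor CCR6, and Defb3 and Defb4 are also known as inducible peptides of mouse epithelia. Defb6 was first described from skeletal muscle and is also found in stratified epithelia.

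In the RefSeq table of mouse assembly GRCm38.p6, all 5 genes lie on chromosome 8. Defb14, Defb4 and Defb6 follow each other with no other protein-coding gene between them, and Defb3 comes next after Defb46 and Defb5. Defb1 lies beyond another 41 protein-coding genes. Promoter sequences of RefSeq were matched for 2 of the 5 members, Defb3 and Defb6. They are shown because these near neighbours have similar upstream sequence. Both are the 250 bases before the annotated start, on the plus strand of GRCm38.p6, 5′ to 3′, at chr8:19293111-19293360 for Defb3 and chr8:19225228-19225477 for Defb6. Capitals mark matches to the octamer motif ATTTGCAT and to the TATA-type motif TATATAA.
Defb3: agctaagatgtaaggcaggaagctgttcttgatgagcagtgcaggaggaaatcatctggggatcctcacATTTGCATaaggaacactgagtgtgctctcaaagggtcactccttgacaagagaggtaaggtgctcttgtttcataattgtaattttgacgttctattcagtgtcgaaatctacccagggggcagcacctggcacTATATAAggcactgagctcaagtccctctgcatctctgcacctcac
Defb6: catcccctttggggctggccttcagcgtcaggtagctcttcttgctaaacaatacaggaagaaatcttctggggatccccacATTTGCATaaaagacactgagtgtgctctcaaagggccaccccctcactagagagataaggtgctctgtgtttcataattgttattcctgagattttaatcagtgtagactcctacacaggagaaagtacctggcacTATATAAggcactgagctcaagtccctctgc

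In a global alignment the 2 stretches matched at 192 of 265 columns (72.5%), of which 30 columns were gaps. The octamer begins 181 bases before the start in Defb3 and 168 bases before it in Defb6. The TATA-type motif begins 46 bases before the start in Defb3 and 31 in Defb6. Searched on both strands with no overlap between these motifs in either stretch, the octamer stands in 1.6% and the TATA-type motif in 3.04% of 32851 mouse promoter windows of this length. The motifs GGANTTTCC (NF-kB type), TGANTCA (AP-1 type) and TTCNNNGAA (STAT type) had no match in either stretch, against 1.07%, 6.75% and 7.02% of all windows. The octamer and TATA-type motifs were chosen after the sequences were read, and a match describes letters and not a site in use.

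The deposited values are log2 intensities and carry no detection call. A background limit was therefore set on each array at the 95th percentile of 1179 olfactory and vomeronasal receptor genes, which are not known for expression in skin, and it lay between 5.97 and 6.08. Median log2 intensities of all probe sets ran from 6.89 to 6.93 over the 6 arrays. All 6 basal keratinocyte markers, all 4 measured markers of differentiated keratinocytes and all 5 of activated keratinocytes lay above the limit on every array. The wound arrays numbered 2 stood apart in hair follicle transcripts: the mean log2 intensity of 7 hair markers was 7.95 and 6.14 in day 1 wounds (replicates 1 and 2), 9.75 and 6.47 in day 4 wounds, and 11.46 and 11.48 in intact skin.

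**Figure D1:**
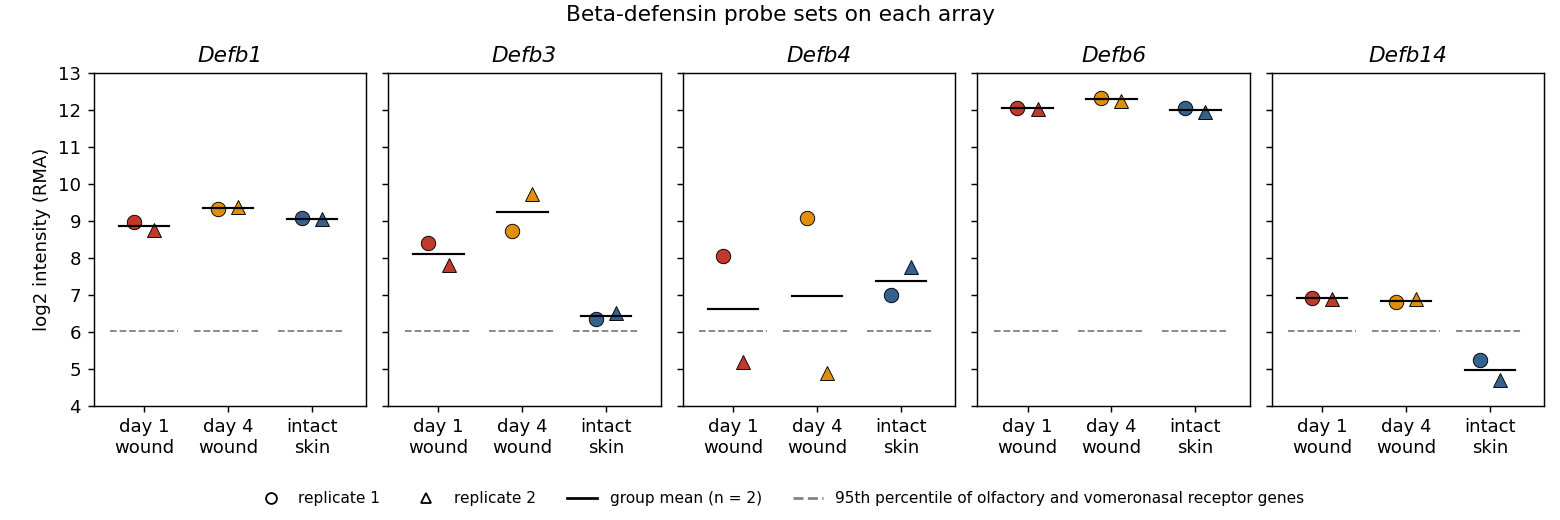
Log2 intensity (vertical axis) of each beta-defensin on every array of day 1 wounds, day 4 wounds and intact skin, with circles for replicate 1, triangles for replicate 2, black bars for the mean of 2 arrays and dashed lines for the mean background limit of the group's arrays. Defb3 and Defb14 lay higher on every wound array than on either intact array, Defb1 and Defb6 kept a narrow range, and Defb4 split between wound replicates.

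Day 1 wounds were compared with intact skin for the early response to injury, and 2 of the 5 members, Defb14 and Defb3, were higher. None was lower. Of all genes tested 14.7% were higher and 14.6% lower in this comparison (29.3% in either direction), with a median log2 change of −0.04, and the members' median was 0.04. In day 4 wounds 3 of 5 were higher than in intact skin, Defb3, Defb14 and Defb6, and none was lower. There 14.8% of all genes were higher and 12.1% lower (26.9% in either direction), with a median log2 change of −0.03 against 0.29 for the members. Between day 4 and day 1 wounds limma called 0 of the 5, and 3 had an unadjusted p under 0.05. These were Defb1, Defb3 and Defb6, at ranks 548, 1888 and 2268 by p among 19938 genes. The share of all genes at that unadjusted level was not counted. Of all genes 2.23% were called in that comparison, 1.09% higher and 1.14% lower in day 4 wounds. No pair of members was tested for a difference in change.

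Defb14 was near background in intact skin and above the limit in all wounds. Its log2 intensity was 6.92 and 6.89 in day 1 wounds, 6.79 and 6.87 in day 4 wounds, and 5.23 and 4.68 in intact skin. The 4 wound arrays lay within 0.13 of each other and above both intact arrays, which were 0.84 and 1.30 below the limit. The log2 change was 1.95 on day 1 (SE 0.17, adjusted p = 5.55e-04), with day 1 wounds at 6.91 ± 0.02 and intact skin at 4.96 ± 0.39 (mean ± SD, n = 2 each). On day 4 it was 1.88 (SE 0.17, adjusted p = 9.20e-04), with 6.83 ± 0.06 in day 4 wounds (SD, n = 2). Since intact skin gives only an upper bound, the rise was at least 1.84-fold on day 1 and at least 1.74-fold on day 4, taking intact skin at the limit. In wounds the values lay 0.77 to 0.92 above that limit, close to the 99th percentile of the receptor genes (6.75 to 6.81 on the wound arrays). On the intact arrays that percentile stood at 6.90 and 6.74, so with it as the limit almost no lower bound on the rise remains. Day 4 and day 1 wounds differed by −0.08 (95% interval −0.48 to 0.33, adjusted p = 0.866). Both calls held with any 1 array dropped (highest adjusted p = 0.00779 on day 1 and 0.00968 on day 4). In skin biopsies more cells of a type and more RNA per cell cannot be told apart.

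Defb3 was higher on every wound array and its mean was highest on day 4. It read 8.40 and 7.79 in day 1 wounds, 8.73 and 9.73 in day 4 wounds, and 6.34 and 6.51 in intact skin. No wound array overlapped with intact skin, and both day 4 arrays lay above both day 1 arrays. In day 1 wounds the level was 3.18-fold that of intact skin (log2 change 1.67, SE 0.34, adjusted p = 0.0122), where day 1 wounds averaged 8.10 ± 0.43 and intact skin 6.42 ± 0.12 (mean ± SD, n = 2 each). In day 4 wounds it was 6.99-fold (log2 change 2.80, SE 0.34, adjusted p = 0.00233), with a mean of 9.23 ± 0.71 (SD, n = 2). The difference of 1.14 between day 4 and day 1 wounds did not pass (95% interval 0.32 to 1.95, adjusted p = 0.146). In intact skin Defb3 lay 0.26 and 0.53 above the limit but under the 99th percentile of the receptor genes, so its folds are approximate. The replicates stood 0.61 apart on day 1, and 317 of 19938 genes had a larger gap. On day 4 they stood 1.00 apart, with 143 genes beyond that. The day 4 call held with any 1 array left out (highest adjusted p = 0.0278). The day 1 call was lost without day 1 wound replicate 1 (1.36, adjusted p = 0.0688), without intact skin replicate 1 (1.58, adjusted p = 0.0828) and without intact skin replicate 2 (1.75, adjusted p = 0.0616). In a fit without both wound arrays numbered 2, with 1 residual degree of freedom, Defb3 changed by 1.98 on day 1 (adjusted p = 0.0443) and stood at 2.31 on day 4 (adjusted p = 0.0664). In that fit Defb14 stood at 1.97 and 1.83 (adjusted p = 0.0885 and 0.105), and limma called 0 genes of the whole array on day 4. Without both wound arrays numbered 1 the changes of Defb3 were 1.36 and 3.31 (adjusted p = 0.0385 and 0.0333), and those of Defb14 were 1.94 and 1.92 (adjusted p = 0.0762 and 0.0830).

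Defb6 was bright and nearly level. Its log2 intensity was 12.04 and 12.03 in day 1 wounds, 12.32 and 12.24 in day 4 wounds, and 12.05 and 11.93 in intact skin, 5.95 to 6.30 log2 units above the background limit on every array. Day 1 wounds and intact skin overlapped, at a log2 change of 0.04 (95% interval −0.15 to 0.24, adjusted p = 0.710). Day 4 wounds lay above the other groups and were 1.22-fold intact skin (log2 change 0.29, SE 0.08, adjusted p = 0.0385). Each of the 6 fits that dropped 1 array lost this call, with changes of 0.23 to 0.35 and adjusted p between 0.0628 and 0.171, and cyclic loess scaling lost it too (0.23, adjusted p = 0.0672). The moderated F test over the 3 groups gave an adjusted p of 0.0590. Skeletal muscle, where Defb6 is also known, was present in every biopsy. All 9 muscle markers lay above the limit on all arrays, with mean log2 intensities of 10.92 and 10.98 in day 1 wounds, 10.50 and 10.75 in day 4 wounds, and 10.07 and 10.08 in intact skin. Of them 8 were higher on day 1 and 6 on day 4 than in intact skin (14.7% and 14.8% of all genes were higher). The part of muscle in the values of Defb6 was not tested.

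Defb1, the constitutive member, stayed within 0.61 log2 units. It read 8.97 and 8.75 in day 1 wounds, 9.32 and 9.36 in day 4 wounds, and 9.06 and 9.04 in intact skin. Day 1 arrays lay below and day 4 arrays above both intact arrays, by small steps. The log2 change was −0.19 on day 1 (SE 0.09, adjusted p = 0.177) and 0.29 on day 4 (SE 0.09, adjusted p = 0.0622), and neither passed. Day 4 wounds stood 0.48 above day 1 wounds (95% interval 0.26 to 0.70, adjusted p = 0.0604), which also missed the threshold. The moderated F test over the 3 groups passed with an adjusted p of 0.0229, and it does not say which groups differ.

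**Figure D2:**
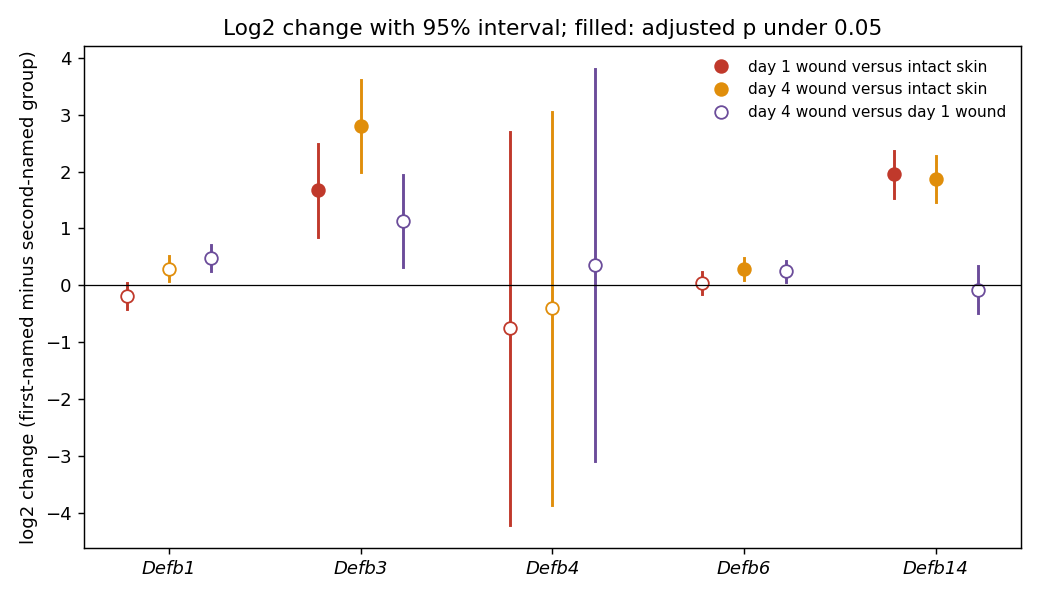
Log2 change of each beta-defensin with its 95% interval from limma (vertical axis) in day 1 wounds versus intact skin, day 4 wounds versus intact skin and day 4 versus day 1 wounds. Filled points passed an adjusted p of 0.05 (Defb3 and Defb14 on both days, Defb6 on day 4), and the intervals of Defb4 span up to 6.91 log2 units.

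Defb4 differed more between replicates than between groups. It read 8.05 and 5.18 in day 1 wounds, 9.06 and 4.88 in day 4 wounds, and 7.0 and 7.75 in intact skin. Both wound arrays numbered 1 lay above intact skin, and both numbered 2 lay under the background limit, by 0.79 on day 1 and 1.15 on day 4. With the array numbered 2 taken at its limit, replicate 1 was at least 4.23-fold higher on day 1 and at least 8.17-fold higher on day 4. No contrast passed: the log2 change was −0.76 on day 1 (95% interval −4.22 to 2.70, adjusted p = 0.732), −0.41 on day 4 (95% interval −3.86 to 3.05, adjusted p = 0.863) and 0.36 between the days (adjusted p = 0.930). Without both wound arrays numbered 2, an alternative chosen after the values were seen, the changes turned to 0.68 on day 1 (adjusted p = 0.386) and 1.69 on day 4 (adjusted p = 0.146).

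Defb4 was 1 of 51 genes that were at least 4-fold higher in replicate 1 than in replicate 2 in wounds of both days, with values under the limit set at the limit. Of these 51, 34 had symbols starting with Krt, those of keratins and keratin-associated proteins, and 0 genes differed by as much the other way on both days. The share of such symbols over all genes was not counted. The step of 4-fold was chosen after the Defb4 values were seen, so the place of Defb4 among the 51 is not a test. Likeness to Defb4 was ranked over 2136 genes that ranged over at least 1 log2 unit, leaving out keratin-associated genes and provisional gene names. Those with the highest Pearson correlation with Defb4 over the 6 arrays were the inner root sheath keratin Krt71 (r = 0.857), Gpx2 (0.841), the root sheath protein gene Tchh (0.841), Krt27 (0.824) and Krt25 (0.824). Of the 2136 genes 0 exceeded 0.95. The most alike genes were looked for after the Defb4 values were seen, and they share the arrays and their replicate split with it. Krt71 read 11.56 and 6.41 in day 1 wounds, 12.51 and 7.34 in day 4 wounds, and 13.11 and 13.13 in intact skin. Unlike Krt71, Defb4 was higher on both wound arrays numbered 1 than in intact skin. Defb4 also stood 0.75 apart between the 2 intact arrays, where 53 of 19938 genes had a larger gap. Of the 7 hair follicle markers 6 were lower on day 1 and 3 on day 4 than in intact skin (14.6% and 12.1% of all genes were lower). The part of hair follicles in the Defb4 values was not tested.

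**Figure D3:**
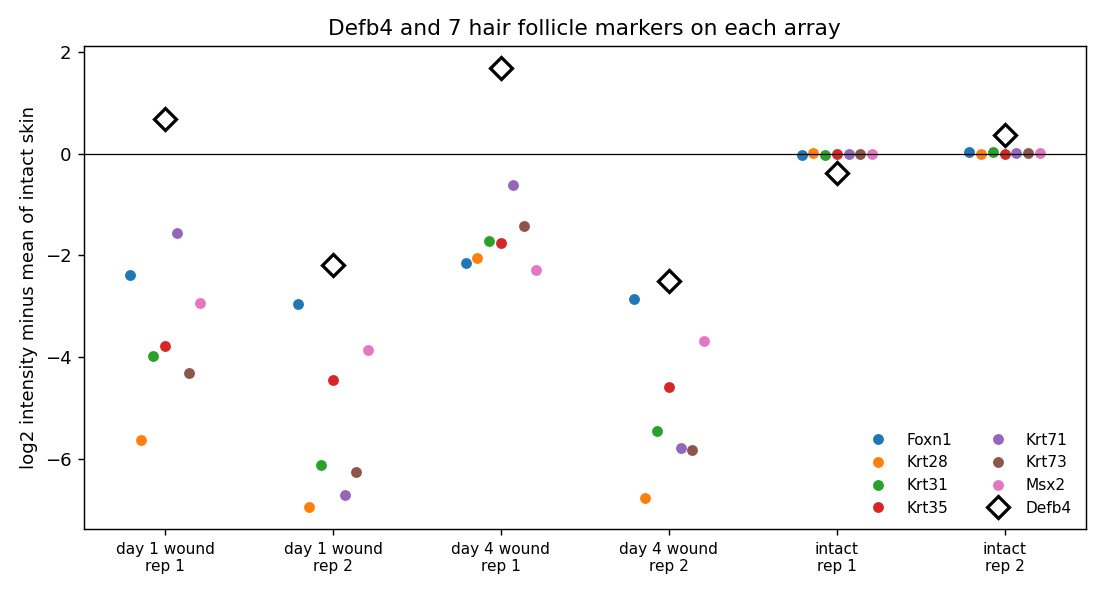
Log2 intensity minus the mean of intact skin (vertical axis) for Defb4 (open diamonds) and 7 hair follicle markers (dots) on each of the 6 arrays. Hair markers and Defb4 were lower on the wound arrays numbered 2 than on those numbered 1, while Defb4 on the wound arrays numbered 1 lay above 0 and the hair markers below 0.

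The array held 34 other beta-defensin genes with a single symbol, many of them known from the epididymis and testis. limma called 0 of them in any contrast, and their largest log2 change was 0.38 in size. At an unadjusted p under 0.05 there were 4 on day 1, 3 on day 4 and 2 between the days. At least 29.3% of all genes passed that level on day 1 and 26.9% on day 4, the shares called by limma. Of the 34 other beta-defensin genes 27 were not above the background limit on both arrays of any group. They include the neighbour Defb5, named after its values were seen. The other 7 were Defb20, Defb21, Defb25, Defb29, Defb30, Defb45 and Defb46, each varying by no more than 0.56 over the 6 arrays. Defb46, which lies between Defb6 and Defb3, read 7.33 and 7.15 in day 1 wounds, 7.42 and 7.47 in day 4 wounds, and 7.50 and 7.23 in intact skin. Whether these 7 genes are expressed in skin was not tested.

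**Figure D4:**
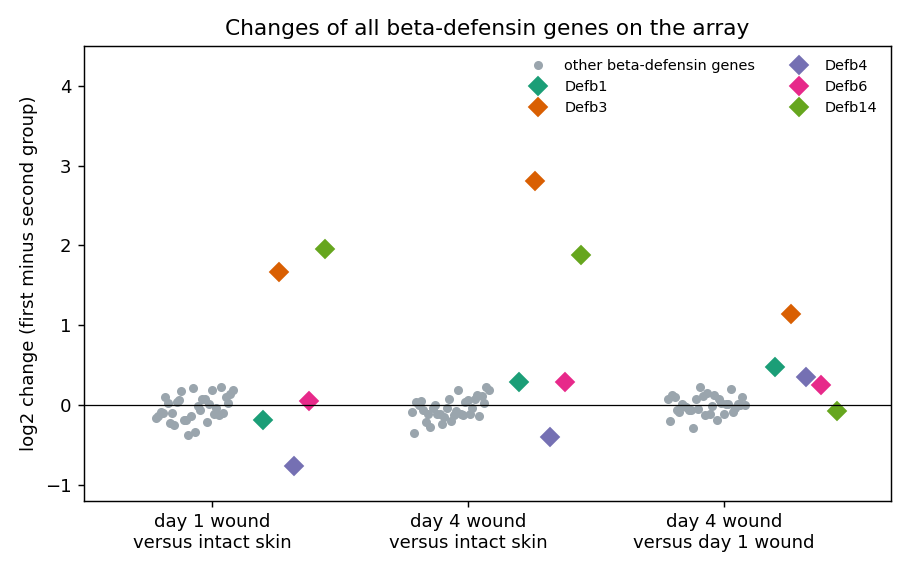
Log2 change (vertical axis) of the 5 members (diamonds) and the 34 other beta-defensin genes (grey dots) in the 3 comparisons. The other genes lay within 0.38 of 0, while Defb3 and Defb14 reached 2.80 and 1.95.

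Ligands known to induce epithelial defensins were mostly higher in wounds. This list and the other gene lists were chosen with earlier results of these data known. Of all genes 14.7% were higher and 14.6% lower on day 1, and 14.8% were higher and 12.1% lower on day 4. Of 17 measured (19 listed), 11 were higher and 1 lower on day 1, at a median log2 change of 1.27, and 10 were higher and 1 lower on day 4, at a median of 1.25. The cytokine Il1b stood at 11.58 and 11.77 in day 1 wounds, 11.26 and 11.49 in day 4 wounds, and 6.03 and 6.37 in intact skin, log2 changes of 5.47 on day 1 and 5.17 on day 4 (adjusted p = 1.70e-05 and 3.11e-05). The keratinocyte cytokine gene Il1f9, now named Il36g, rose by 2.66 and 2.40, and Osm, a cytokine that signals through STAT3, by 3.45 and 2.98. Il6 was lower in day 4 than in day 1 wounds by a log2 change of −2.71 (adjusted p = 0.0291). The growth factor Tgfa, an EGF receptor ligand, fell by 0.88 on day 1 and by 0.86 on day 4. Hbegf and Ereg, also EGF receptor ligands, went the other way. Hbegf rose by 0.735 and 0.49, and Ereg by 0.435 on day 1, with 0.10 on day 4 (adjusted p = 0.416). The measured IL-17 genes Il17a, Il17c and Il17f were not called on either day. Their log2 changes were −0.225, −0.015 and −0.185 on day 1, and −0.245, −0.105 and −0.125 on day 4. Il17a was not above the limit on both arrays of any group. These IL-17 genes, Tgfa and Hbegf are named here after their values were seen.

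Of 18 measured receptors and factors of these pathways (21 listed) 13 were higher and 1 lower on day 1, at a median of 0.97, and 12 were higher and 2 lower on day 4, at a median of 0.60. Over all genes 14.7% and 14.8% were higher, and 14.6% and 12.1% lower. Il17ra, a receptor chain for IL-17 cytokines, rose by 1.51 on day 1 and was lower in day 4 than in day 1 wounds by a log2 change of −0.91 (adjusted p = 0.0156). Nfkbiz, an NF-kB cofactor of IL-17 responses, rose by 1.64 on day 1 and 1.11 on day 4. The pattern receptor Tlr2 rose by 2.23 and 1.69. Between day 4 and day 1 wounds limma called 0 higher and 3 lower of these 18 genes, and 0 higher and 2 lower of the 17 ligands. Of all genes 1.09% were higher and 1.14% lower. At an unadjusted p under 0.05, 1 was higher in each list and more were lower, though the lower ones were not counted. The median log2 change between the days was −0.345 for the 18 genes and −0.245 for the ligands.

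Of 5 genes of defensin receptors and competing ligands, 3 were higher and 1 lower on each day. Over all genes 14.7% were higher and 14.6% lower on day 1, and 14.8% and 12.1% on day 4. Ccl20, the chemokine ligand of CCR6, read 10.01 and 9.72 in day 1 wounds, 8.10 and 7.85 in day 4 wounds, and 6.89 and 7.03 in intact skin. It rose by 2.90 on day 1 and 1.01 on day 4. Its receptor gene Ccr6, named after its values were seen, was near background in all groups. Ccr2, a monocyte chemokine receptor, rose by 3.11 and 2.60, and Mc1r, a melanocortin receptor, fell by 0.36 and 0.47.

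Other antimicrobial genes of skin and leukocytes were mostly higher in wounds as well. Of 17 measured (19 listed) 10 were higher and 1 lower on each day than in intact skin, at median log2 changes of 1.24 and 1.14. The shares of all genes were 14.7% higher and 14.6% lower on day 1, and 14.8% and 12.1% on day 4. S100a9 and S100a8, which form a metal-binding protein pair, rose by 4.76 and 4.56 on day 1 and by 4.30 and 4.08 on day 4. Lcn2, which binds bacterial siderophores, rose by 3.65 on day 1, and Pglyrp3, a peptidoglycan recognition protein of epithelia, by 1.14 on day 4. Between the days 0 were higher by limma (1 at an unadjusted p under 0.05) and 3 were lower in day 4 wounds, namely Ptx3 (−2.58), Lcn2 (−1.31) and Pglyrp1 (−1.22). The median log2 change of the 17 genes between the days was −0.195, and those lower at the unadjusted level were not counted.

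Leukocyte and keratinocyte markers moved in the same biopsies as Defb3 and Defb14. For scale, 14.7% of all genes were higher and 14.6% lower on day 1, and 14.8% and 12.1% on day 4. All 9 neutrophil markers were higher on day 1 and 8 on day 4, with mean log2 intensities of 10.06 and 10.57 in day 1 wounds, 8.81 and 9.07 in day 4 wounds, and 5.83 and 5.93 in intact skin. The exception on day 4 was Ngp, named after its values were seen, at a log2 change of 0.35 (adjusted p = 0.501). S100a8 and S100a9 are counted both among these markers and among the antimicrobial genes. All 7 macrophage markers were higher on each day. Of 5 activated keratinocyte markers 4 were higher on each day. Krt16, a keratin of wound-edge epidermis, read 11.07 and 11.03 in day 1 wounds, 11.48 and 11.46 in day 4 wounds, and 7.66 and 7.70 in intact skin. Krt6a, also induced in activated epidermis, rose by 1.17 on day 1 and 1.25 on day 4. The exception was Krt17, named after its values were seen, at log2 changes of −0.24 (adjusted p = 0.147) and −0.14 (adjusted p = 0.388). Of 4 measured markers of differentiated keratinocytes 2 were higher and 1 lower on each day. The cornified envelope gene Ivl was lower, by log2 changes of −1.34 (adjusted p = 0.00175) and −0.78 (adjusted p = 0.0156), and Krt1 rose by 0.51 and 0.83. Of 6 basal markers 3 were higher on each day, with a median log2 change of 0.19 and 0.16. The part of these cell types in the defensin values was not tested.

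For each called member the 5 most alike genes by Pearson correlation over the 6 arrays were listed among the genes passing the moderated F test. Keratin-associated genes and provisional gene names were left out of the ranking and of its totals. For Defb3 these were Trim35, the muscle gene Myom1, the junction gene Jam2, Slc41a3 and the epidermal kallikrein Klk5, with r between 0.991 and 0.993, and 236 of 5912 genes exceeded 0.95. For Defb14 they were Cmtr2, Kmo, the complement gene C2, the interleukin receptor chain Il2rb and Gbp9, with r between 0.995 and 0.998, and 590 of 5912 genes exceeded 0.95. For Defb6 they were the granzyme gene Gzmc, Cd4, Atp5c1, Sdr16c6 and a kappa variable immunoglobulin gene, with r between 0.973 and 0.991, and 25 of 5913 genes exceeded 0.95. With 6 arrays in 3 groups such values describe a shared order of arrays.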

How the data were processed

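The authors deposited log2 intensities per probe set of an Affymetrix mouse gene array, computed by RMA, per the submitters' processing notes, with the version not given in the sources used here. Values were rounded to 2 decimals. RMA corrects background, equalises the arrays' distributions and summarises probes, so low values are compressed toward background. RNA integrity numbers were 7.7 to 9.1 per the labels. Of 35556 probe sets 21789 carried 1 gene symbol, 1621 several and 12146 none. For 999 genes with several the brightest over the 6 arrays was kept. The test was limma 3.58.1 under R 4.3.3 with a mean per group over all arrays (3 residual and 3.4 prior degrees of freedom), two-sided, with Benjamini-Hochberg adjustment over 19938 genes and a threshold of 0.05. The fit was tried on simulated data with independent noise, where 98 genes changed by 1 and 102 by 2 log2 units in day 1 wounds. It recovered 86.7% and 98% of them, with 8 false calls among 193. Far more genes were called in the real data, and a spread shared between wound arrays was not simulated. The error rate in the real data was therefore not tested. Alternatives were other scalings, priors, filters, a replicate block and left-out arrays. In each list up to 4 genes with the smallest p per comparison could be named, and genes outside this rule are marked in the text. The members and lists were chosen with earlier results of these data known. Promoters were aligned with Biopython 1.88. Probe sequences were not used here, so cross-hybridisation between defensin genes was not tested.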

Additional observations from a re-analysis of the deposited data

How the results depend on the processing

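Over 17 alternatives per comparison, 223 of the members' log2 changes kept direction and side of the threshold, 18 lost a call, 6 gained one and 8 changed sign. Other priors, the filter, probe-set averaging, the block and arrays of the third group cannot alter a member's log2 change, so direction was fixed there. Dropping either array of the third group also repeats the fit with only the 2 groups' arrays. The 223 therefore overstate independent agreement. With any 1 array left out, 1 to 2 members were called on day 1, 2 to 3 on day 4 and 0 between the days. Without both wound arrays numbered 2 the counts were 1 on day 1 and 0 on day 4, and without both numbered 1 they were 1 and 1. These 2 alternatives were chosen after seeing the data and leave 1 residual degree of freedom. A mean-variance trend or a robust prior called 1 member between the days, Defb1 (adjusted p = 0.0464 and 0.0496). On day 4 Defb1 also passed with the dimmest 30% of genes left out (0.0483), with only the 2 groups' arrays, and without either day 1 array (0.0425 in each). With the 99th percentile as the limit, 2 members, Defb3 and Defb14, were near background in intact skin, against 1 at the 95th.

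The sign changes concerned Defb4 and Defb6. Defb4 on day 1 was 0.68 without day 1 wound replicate 2 and without both arrays numbered 2. On day 4 it was 1.69 without day 4 wound replicate 2 and without both numbered 2. Between the days it was −0.30 without both numbered 1, −1.08 when day 1 wound replicate 2 was dropped and −1.74 when day 4 wound replicate 1 was. Over the 6 fits that dropped 1 array, Defb4 ranged from −2.20 to 0.68 on day 1, from −2.50 to 1.69 on day 4 and from −1.74 to 2.44 between the days. Defb6 on day 1 was −0.015 without intact skin replicate 2 and ranged up to 0.10 in the other 5 such fits. With the replicate number as a block the member counts were 2, 3 and 0, and the calls over all genes were 5864, 5497 and 583 against 5842, 5371 and 444. Deviations from group means of same-numbered arrays correlated at 0.685 between the wound days and at 0.0139 and 0.0227 with intact skin. Same-numbered wound arrays thus deviated alike, and the labels do not say whether they are linked. The block gave all 3 groups the same replicate effect, so a link between the wound arrays alone was not modelled. In the main fit the numbers were not taken as pairs.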
